A study of Mus musculus with 12 samples.

Results

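The genes of 9 C-type lectin receptors of myeloid cells were followed across the 12 libraries: Clec10a, Mgl2, Clec4a2, Clec4d, Clec4e, Clec4n, Clec5a, Clec7a and Clec12a. They were taken by symbol from the 55376 genes of the deposited count table, and all 9 were found. A member was tested where its counts passed the filter on low counts that left 11994 genes, which 8 of the 9 did. The exception was Mgl2, with 64 counts over all libraries.

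C-type lectin receptors are surface proteins whose extracellular domain binds sugars or glycolipids, many of them on fungi, bacteria or dying cells. Activating members signal through the kinase Syk and the adaptor Card9, either directly or through partner chains such as Fcer1g and Tyrobp, and inhibitory members recruit phosphatases such as Ptpn6. In bone marrow and blood they are known as receptors of monocytes, macrophages, dendritic cells and neutrophils.

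The cells were mouse bone marrow progenitors sorted as c-Kit+/Sca-1+/Lin- and cultured with SCF (100 ng/ml), IL-3 (20 ng/ml) and IL-6 (20 ng/ml) in RPMI medium. The tested cells expressed NUP98-NSD1, a leukaemia fusion of a nucleoporin with a histone methyltransferase, from a retrovirus, and carried shNizp1#1 (3 libraries) or shNizp1#2 (3 libraries), both against Nizp1, listed as Zkscan17. Fusion cells with a control shRNA (3 libraries) and cells with the empty retroviral vector MSCV and the control shRNA (3 libraries) were the references. All cells had thus taken a retrovirus, selected with geneticin, and a pLKO.1-puro shRNA vector, which lowers but does not delete its target, and the animals' strain and age are not given in the labels used here. The series speaks of independent experiments. Libraries that share a replicate number deviated together across genes, so they are called an experiment below, which is an inference from the data.

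Total counts ran from 3586538 to 6842589 per library, and 3 counts corresponded to between 0.417 and 0.837 CPM (counts scaled to library size, with TMM factors). The progenitor genes Kit and Cd34 averaged 2560 and 1473 CPM over the 12 libraries. Mast cell genes were also abundant: carboxypeptidase A3 (Cpa3) had a mean of 23828 CPM and the chymase gene Cma1 one of 11234 CPM. Zkscan17 had 35.0, 26.2 and 30.4 CPM with shNizp1#1 and 29.0, 17.6 and 27.0 CPM with shNizp1#2, against 62.6, 49.4 and 61.8 CPM with the control shRNA in fusion cells. Both shRNA groups lay below the control group with no overlap, a feature whose share among all tested genes is not given here. With the replicate number as a block in edgeR's quasi-likelihood test, the log2 change was -0.93 (adjusted p = 0.00198) with shNizp1#1 and -1.25 (adjusted p = 2.90e-04) with shNizp1#2. Without the block, the adjusted p-values of edgeR were 0.490 and 0.228.

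Clec10a and Mgl2 are neighbouring genes on chromosome 11, at chr11:70166623-70170834 and chr11:70130329-70137550 (mm10, both on the + strand). They encode the galactose-type lectins of macrophages and dendritic cells. Their coding sequences are close copies, with 813 of 917 aligned bases identical (88.7%) in GENCODE transcripts of the same build. Of the 3331 distinct 75-base windows in Clec10a transcripts, 148 (4.44%) also occurred in Mgl2. Of 640 stretches of 75 bases compared within the aligned coding parts, 145 were identical. The first of those that differ most is shown. Parts outside the coding alignment were not compared in this way. Capitals mark the 8 bases at which they differ, and the stretches cover coding bases 48 to 122 of Clec10a and 96 to 170 of Mgl2.
Clec10a: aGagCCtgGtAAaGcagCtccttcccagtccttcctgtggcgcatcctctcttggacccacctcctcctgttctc
Mgl2: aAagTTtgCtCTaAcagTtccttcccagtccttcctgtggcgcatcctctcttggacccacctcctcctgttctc
All 8 differences lie at the start of the stretch, and the longest identical run of the pair is 183 bases. Per kilobase of exon, Mgl2 reached at most 2.59 CPM, against at least 6.08 CPM for Clec10a.

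The other 7 genes lie on chromosome 6. Clec4a2 (chr6:123122690-123143999, +), Clec4n (chr6:123229843-123247021, +), Clec4d (chr6:123262117-123275265, +) and Clec4e (chr6:123281789-123289870, -) form a cluster. Clec12a (chr6:129349964-129365303, +) and Clec7a (chr6:129461591-129472777, -) lie in another, and Clec5a (chr6:40574894-40585803, -) stands apart. In GENCODE transcripts, none of these genes but Clec4a2 shared a 75-base window with another gene. The GENCODE bounds of Clec10a, Clec4a2, Clec4d, Clec5a, Clec7a and Clec12a differ from the coordinates given here, which come with the counts. The window shares may therefore not hold exactly for the gene models that were counted. Clec4a2 shared 97 of 2990 windows (3.24%) with Clec4a4 and Clec4b1, so its counts are the less certain ones.

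Most of these chromosome 6 genes moved together between experiments, so their promoters were searched for GAGGAA, the core of many sites of the myeloid factor PU.1. The search covered the 250 bases before the start of the gene in RefSeq (GRCm38.p6), on both strands. The motif was chosen with the results known. It occurred in 5 of the 6 chromosome 6 members found in the promoter table, and in Mgl2 on chromosome 11. Of all 32851 windows, 7639 (23.3%) hold it. It was not found in the window of Clec4a2. Clec10a and Clec4n were not in the table. Windows of 3 of the genes, at chr6:40585806-40586055, chr6:123289872-123290121 and chr6:129472780-129473029, are given on the gene's own strand (- in each), with the motif or its reverse complement in capitals.
Clec5a: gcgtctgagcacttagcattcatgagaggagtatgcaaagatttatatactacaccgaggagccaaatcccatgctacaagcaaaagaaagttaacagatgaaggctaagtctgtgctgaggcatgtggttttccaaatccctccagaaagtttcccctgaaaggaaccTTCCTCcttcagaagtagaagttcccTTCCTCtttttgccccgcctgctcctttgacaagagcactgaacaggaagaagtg
Clec4e: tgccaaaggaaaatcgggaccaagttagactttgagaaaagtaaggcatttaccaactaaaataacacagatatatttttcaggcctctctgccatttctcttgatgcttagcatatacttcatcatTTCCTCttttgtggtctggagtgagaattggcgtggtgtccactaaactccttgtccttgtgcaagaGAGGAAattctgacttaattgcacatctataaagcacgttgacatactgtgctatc
Clec7a: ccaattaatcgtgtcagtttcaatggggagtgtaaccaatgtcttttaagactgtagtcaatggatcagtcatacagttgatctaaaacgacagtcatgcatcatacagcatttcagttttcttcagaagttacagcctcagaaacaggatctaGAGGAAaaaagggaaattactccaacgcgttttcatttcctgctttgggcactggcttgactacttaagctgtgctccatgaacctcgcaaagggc
The windows of Clec5a and Clec4e hold 2 matches each and that of Clec7a holds 1. At least 2 matches were present in 3.54% of all windows. A match describes the letters and does not show that a factor binds there. Since the motif was picked with the results known, its share among these genes supports no link to PU.1.

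Per kilobase of exon and averaged over the 12 libraries, Clec10a (24.8 ± 27.1 CPM), Clec4n (23.8 ± 19.1 CPM), Clec7a (23.3 ± 19.1 CPM) and Clec4d (18.9 ± 15.7 CPM) had the highest levels (SD, n = 12). Clec4e averaged 7.93 ± 6.16 CPM per kilobase and Clec12a 6.26 ± 6.37 CPM per kilobase. Clec4a2 (3.39 ± 3.37 CPM per kilobase) and Clec5a followed, and Mgl2 was lowest (0.555 ± 0.761 CPM per kilobase). The SDs are about as large as the means, and neighbours in this order did not differ by more than their spread. In the empty-vector cells alone, Clec4n led with 22.5 ± 19.1 CPM per kilobase, and Clec10a, with 9.18 ± 2.68 (SD, n = 3), came after Clec7a and Clec4d.

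**Figure D1:**
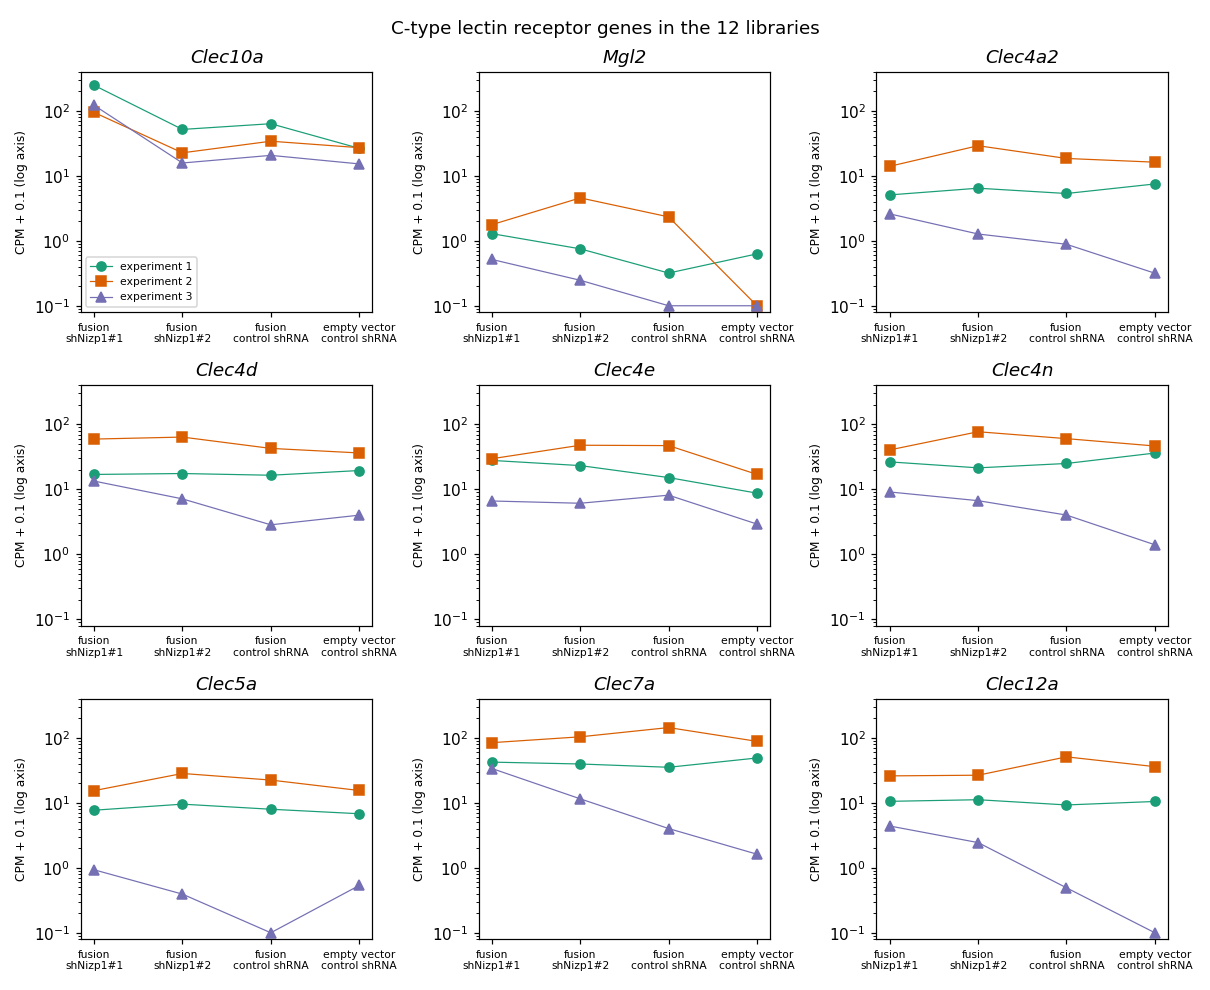
Level of the 9 lectin genes in each library, as CPM plus 0.1 on a log axis, by group (horizontal axis) and experiment (colour and symbol, joined by lines). Clec10a is highest with shNizp1#1 in all 3 experiments, and the lines of most other genes lie in the order of the experiments, with experiment 2 on top and experiment 3 at the bottom.

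Clec10a is the galactose-type lectin also called MGL1 or CD301a in the mouse. With libraries paired by experiment, edgeR called it higher with shNizp1#1 than with the control shRNA in fusion cells. Without the pairing, edgeR did not call it. It had 248, 94.9 and 122 CPM in experiments 1, 2 and 3 with shNizp1#1, against 63.5, 34.1 and 20.6 CPM with the control shRNA. The groups did not overlap, though the share of all tested genes without overlap is not given here. The within-experiment ratios were 3.91, 2.78 and 5.92. With the replicate block, the log2 fold change was 2.02 (SE 0.26, 95% interval 1.43 to 2.60, edgeR adjusted p = 0.00857). Without the block it was 1.98 (SE 0.56) and edgeR's adjusted p was 0.682, while DESeq2 without the block called it (adjusted p = 0.0289). A direction shared by all 3 experiments is common among genes, since 17.2% of tested genes were higher with shNizp1#1 in all 3. By size, Clec10a had rank 5 among the 61 genes that the blocked test called higher.

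With the second shRNA, Clec10a was not called in either test. Clec10a had 51.9, 22.6 and 15.7 CPM with shNizp1#2, against 63.5, 34.1 and 20.6 CPM with the control shRNA. Each value lay below the control of its own experiment, as in 19.1% of tested genes, and the groups overlapped. The blocked log2 fold change was -0.42 (SE 0.27, 95% interval -1.03 to 0.20, edgeR adjusted p = 0.618). Set against each other, shNizp1#2 cells had less Clec10a than shNizp1#1 cells, with a blocked log2 difference of -2.43 (SE 0.26, 95% interval -3.02 to -1.84, edgeR adjusted p = 0.00304). Without the block the difference was -2.37 and edgeR's adjusted p was 0.379. The blocked log2 difference of Zkscan17 itself, shNizp1#2 minus shNizp1#1, was -0.32 (SE 0.13, adjusted p = 0.230).

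Between fusion and empty-vector cells the difference in Clec10a did not pass the test. Fusion cells with the control shRNA had 63.5, 34.1 and 20.6 CPM, against 26.5, 27.1 and 15.2 CPM in empty-vector cells. The fusion libraries were higher in 3 of 3 experiments, as were those of 15.9% of tested genes, and the groups overlapped. The log2 fold change was 0.71 with the block (SE 0.29, 95% interval 0.06 to 1.37) and its adjusted p in edgeR was 0.424. Over the groups, Clec10a thus averaged 155 ± 81.9 CPM with shNizp1#1, 30.0 ± 19.2 CPM with shNizp1#2, 39.4 ± 21.9 CPM with the control shRNA in fusion cells and 22.9 ± 6.70 CPM in empty-vector cells (SD, n = 3 each). In the blocked test, the level with shNizp1#1 stood above those with shNizp1#2 and with the control shRNA, and the differences among the other groups that were tested did not pass.

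The call of Clec10a with shNizp1#1 was kept in 11 of 13 blocked alternatives. It was lost without the control-shRNA library of experiment 3 and without that whole experiment. Leaving out any other single library of the compared groups kept it, that of shNizp1#1 in experiment 3 included. Among the blocked fits that left out 1 library, the adjusted p of edgeR ran from 0.00403 to 0.0558, and the call was lost without the control-shRNA library of experiment 3 (log2 fold change 1.88, adjusted p = 0.0558). With experiment 3 left out of all groups, which leaves 2 experiments, the log2 fold change was 1.75 and the adjusted p 0.126, and the difference between the shRNAs was -2.17 with an adjusted p of 0.0607.

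Markers of the cells known to carry Clec10a were compared beside it. The 18 monocyte and macrophage markers summed to 1372, 4722 and 1562 CPM with shNizp1#1, against 1679, 4292 and 488 CPM with the control shRNA in fusion cells. The sum with shNizp1#1 was lower in experiment 1 and higher in experiments 2 and 3, most of all in experiment 3, where the ratio of Clec10a was also largest. The mean log2(CPM + 1) of the same markers, in which abundant genes weigh less, was 4.33, 5.75 and 3.91 with shNizp1#1, against 4.25, 6.04 and 2.86 with the control shRNA. By this mean, shNizp1#1 was above the control in experiments 1 and 3 and below it in experiment 2. In experiments 1 and 2 its direction was thus opposite to that of the sum. The 17 dendritic cell and MHC class II markers summed to 146, 412 and 90.3 CPM with shNizp1#1, against 116, 449 and 82.0 CPM with the control shRNA. None of the 15 tested markers of the first list and none of the 11 of the second was called with shNizp1#1 in either fit. Of the second list, Cd74 and H2-Ab1, which serve MHC class II presentation, had the highest levels (74.3 and 49.2 CPM on average over the 12 libraries), and Xcr1, Siglech and Zbtb46 stayed under 1 CPM in every library. The part of monocytes and dendritic cells in the Clec10a result was not tested. In these bulk samples, fewer or more cells of a type cannot be told apart from less or more RNA per cell.

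Of 16 tested neutrophil markers, 15 had a blocked log2 fold change below 0 with shNizp1#1 (median -1.10, beside 0.00 over all genes). In edgeR's blocked fit 5 were called lower, as were 134 of all 11994 tested genes (1.63% were called in either direction). Among the 5 were S100a8 (-1.31, adjusted p = 0.00162) and S100a9 (-1.18, adjusted p = 0.00425), which encode the subunits of calprotectin. Ngp (-1.55, adjusted p = 0.00756), a granule protein, was another. The 16 markers summed to 286, 1154 and 12.1 CPM in experiments 1, 2 and 3 with shNizp1#1, against 528, 2314 and 7.65 CPM with the control shRNA. In experiment 3 the sum was thus not lower, and 7 and 9 of the 16 genes had no count in these libraries. None of these genes was called by edgeR without the block, and the part of such cells in the Clec10a result was not tested. Of a list of inducers of lectin genes and of cytokine and interferon response genes, 18 of 19 were tested, and 11 had a blocked log2 fold change above 0 with shNizp1#1 (median 0.11, beside 0.00 over all genes). One gene of the list was called, Chil3, a chitinase-like protein of macrophages, which fell (-1.48, edgeR adjusted p = 0.0247, 1.00 without the block).

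**Figure D2:**
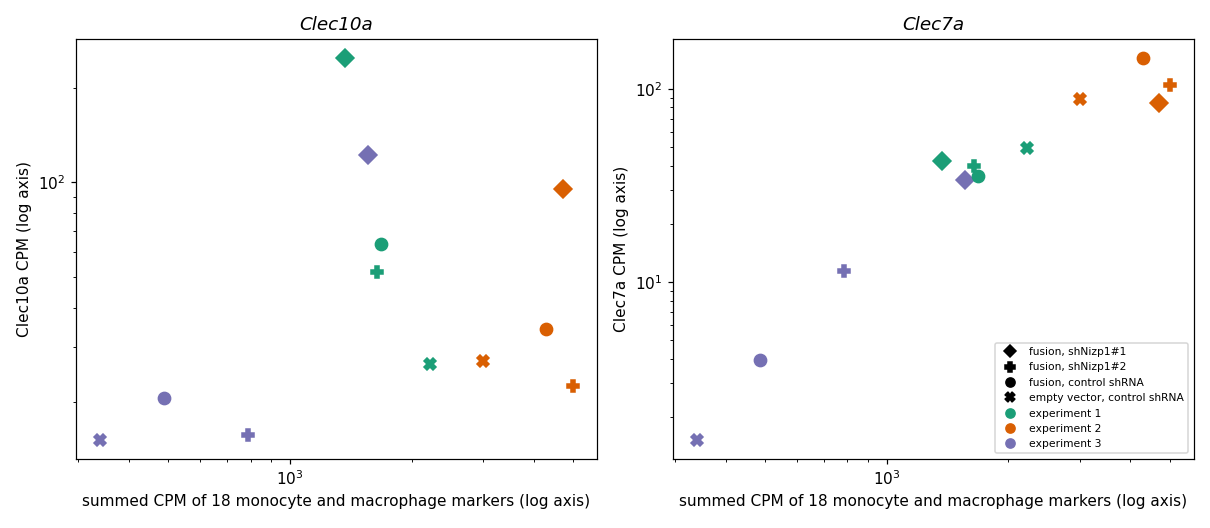
Clec10a (left) and Clec7a (right) in CPM against the summed CPM of 18 monocyte and macrophage markers, both on log axes, with 1 point per library, colours for experiments and symbols for groups. Clec7a lies along the marker sum in all groups, and the 3 shNizp1#1 points of Clec10a lie above the other libraries of their experiment, while in experiment 1 their marker sum is the lowest (1372 CPM) and in experiment 3 the highest (1562 CPM).

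Mgl2, the sister gene that encodes MGL2 or CD301b and binds N-acetylgalactosamine, was near the limit of detection. It had 1.19, 1.67 and 0.417 CPM with shNizp1#1, 0.652, 4.48 and 0.147 CPM with shNizp1#2, and 0.219, 2.24 and 0 CPM with the control shRNA in fusion cells. Empty-vector cells had 0.529, 0 and 0 CPM. The groups overlapped, and a difference was not detectable at this depth. The count of 0 in fusion control experiment 3 allows a level of up to 0.589 CPM, a limit that covers counting error only.

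Among the chromosome 6 genes, 5 encode activating receptors. Clec7a, or Dectin-1, binds beta-glucans of fungal walls and signals through Syk by its own tail. It had 42.3, 84.6 and 33.7 CPM in experiments 1, 2 and 3 with shNizp1#1, and 39.6, 104 and 11.4 CPM with shNizp1#2. Fusion cells with the control shRNA had 35.3, 144 and 3.92 CPM, and empty-vector cells 49.1, 88.6 and 1.52 CPM. In every group experiment 2 was highest and experiment 3 lowest, and the groups overlapped.

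Clec4n, or Dectin-2, binds mannans and signals through Fcer1g. It had 26.4, 40.5 and 9.03 CPM with shNizp1#1, 21.4, 77.1 and 6.60 CPM with shNizp1#2, 25.0, 60.4 and 3.92 CPM with the control shRNA and 36.2, 46.5 and 1.30 CPM with the empty vector. The order of the experiments was again the same in each group.

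Clec4d, or MCL, pairs with Clec4e on the cell surface. It had 16.9, 59.4 and 13.3 CPM with shNizp1#1, and 17.4, 63.8 and 7.04 CPM with shNizp1#2. The control shRNA gave 16.4, 42.7 and 2.75 CPM, and the empty vector 19.4, 36.3 and 3.91 CPM. Both shRNA libraries of every experiment were above the control library of that experiment, by little in experiment 1. Of all tested genes, 17.2% were higher in 3 of 3 experiments with shNizp1#1 and 20.0% with shNizp1#2. For shNizp1#1 the blocked log2 fold change was 0.76 (SE 0.34, 95% interval 0.01 to 1.51, unadjusted p = 0.0484), and edgeR's adjusted p was 0.400.

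Clec4e, or Mincle, is a receptor for mycobacterial glycolipid and is induced by inflammatory signals in macrophages. It had 27.8, 29.6 and 6.53 CPM with shNizp1#1 and 23.2, 47.8 and 6.02 CPM with shNizp1#2. Fusion cells with the control shRNA had 15.1, 47.2 and 8.05 CPM, against 8.65, 16.9 and 2.82 CPM in empty-vector cells. The fusion libraries were higher in 3 of 3 experiments, as were 15.9% of tested genes, with ratios of 1.75, 2.79 and 2.85, although the groups overlapped across experiments. The monocyte and macrophage markers summed to 1679, 4292 and 488 CPM in these fusion cells, against 2223, 2998 and 339 CPM in empty-vector cells, lower in experiment 1 and higher in the others, and their part in the result was not tested. The blocked log2 fold change was 1.29 (SE 0.27, 95% interval 0.72 to 1.86), with an unadjusted p of 2.90e-04 and an adjusted p of 0.0791 in edgeR, which misses the threshold of 0.05. Without the block it was 1.32 (SE 0.95, adjusted p = 1.00).

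Clec5a, or MDL-1, signals through Tyrobp and is known from monocytes and neutrophils. It had 7.61, 15.3 and 0.833 CPM with shNizp1#1, 9.46, 28.3 and 0.293 CPM with shNizp1#2, 7.88, 22.4 and 0 CPM with the control shRNA and 6.71, 15.4 and 0.434 CPM with the empty vector. All 4 libraries of experiment 3 were under 1 CPM.

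The remaining genes encode inhibitory receptors. Clec4a2, or DCIR, carries an inhibitory motif in its tail. It had 5.0, 14.0 and 2.5 CPM with shNizp1#1, and 6.36, 29.1 and 1.17 CPM with shNizp1#2. It had 5.26, 18.5 and 0.785 CPM with the control shRNA and 7.41, 16.2 and 0.217 CPM with the empty vector. Clec12a, or MICL, which recognises uric acid crystals, had 10.5, 26.0 and 4.31 CPM with shNizp1#1, and 11.1, 26.6 and 2.35 CPM with shNizp1#2. It had 9.20, 51.1 and 0.392 CPM with the control shRNA, and 10.4, 36.1 and 0 CPM with the empty vector. In both genes the groups overlapped and each group followed the order of the experiments.

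Across groups, 6 of the 9 genes (Clec4a2, Clec4d, Clec4n, Clec5a, Clec7a and Clec12a) had all 4 libraries of experiment 2 above all 4 of experiment 1, and these above all 4 of experiment 3. This order held for 364 of the 11994 tested genes (3.03%). Clec4e was lowest in experiment 3, but its libraries of experiments 1 and 2 overlapped. Over all libraries, Clec10a and Mgl2 did not have this order. Within groups, Clec10a was higher in experiment 1 than in experiment 3 in all 4, and Mgl2 had the order of experiments 2, 1 and 3 in 3 of 4.

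The same split appears in the variation of log2(CPM + 1) over the 12 libraries. The experiment number took 97.0% of the sum of squares of Clec5a, 91.8% of Clec4a2, 88.0% of Clec12a, 87.6% of Clec4n and 86.4% of Clec4d, against a median of 48.7% over all tested genes. It took 75.6% for Clec7a and 75.3% for Clec4e. For Clec10a it took 19.3%, and the group took 75.6%. In the other 7 genes the group took between 0.728% (Clec5a) and 19.9% (Clec4e), against a median of 20.6% over tested genes.

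**Figure D3:**
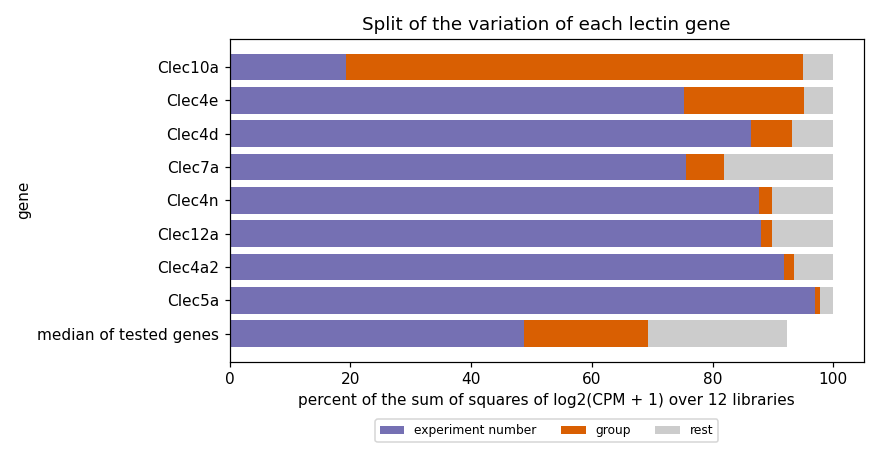
Share of the sum of squares of log2(CPM + 1) over the 12 libraries that goes with the experiment number, with the group, and with neither, in percent, for the 8 tested lectin genes and as the median over all tested genes, whose parts are medians taken separately and need not add up to the whole. Clec10a is the gene with most of its variation between groups (75.6%), and the other genes vary mainly between experiments (75.3% to 97.0%).

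Markers of monocytes varied with these genes. The 18 markers summed to between 339 and 1562 CPM in experiment 3, between 1372 and 2223 CPM in experiment 1 and between 2998 and 5009 CPM in experiment 2. Lyz2, the lysozyme of myeloid cells, had 986, 407, 100 and 32.4 CPM in experiment 3 with shNizp1#1, shNizp1#2, the control shRNA and the empty vector. In that experiment Clec7a ran in the same order. The complement genes C1qa, C1qb and C1qc of resident macrophages stayed at or below 2.24 CPM in all libraries, and no marker of the list was at 0 in every library. The part of monocytes in the spread of the lectin genes was not tested.

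The direction of the shNizp1#1 difference varied between experiments. Of the 8 tested lectin genes, 6 were higher with shNizp1#1 than with the control shRNA in experiment 1, 2 in experiment 2 (Clec10a and Clec4d) and 7 in experiment 3. Over all tested genes the shares were 49.7%, 47.0% and 51.9%. With shNizp1#2, 6, 5 and 6 of the 8 were higher in experiments 1, 2 and 3, against 52.6%, 47.1% and 51.8% of all tested genes. Between fusion and empty-vector cells, 3, 8 and 6 of the 8 were higher in the fusion cells, against 49.6%, 50.2% and 50.4% of all tested genes. The genes vary together within an experiment, so these counts are descriptions.

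**Figure D4:**
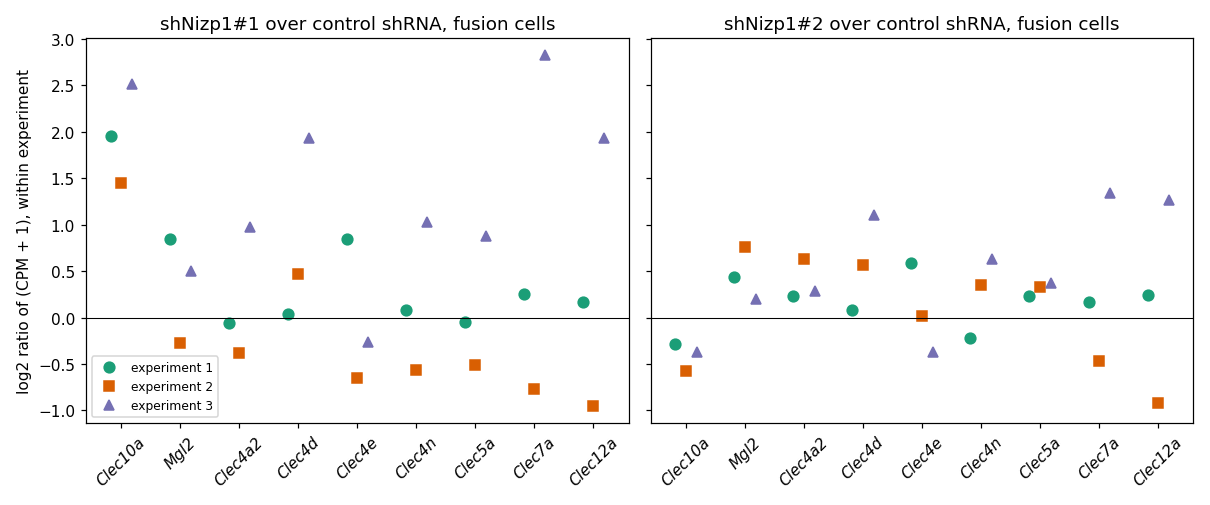
Ratio of CPM plus 1 to that of the control shRNA library of the same experiment, on a log2 scale, for shNizp1#1 (left) and shNizp1#2 (right) in fusion cells, with 1 point per experiment. Clec10a is above 0 in all 3 experiments with shNizp1#1 and below 0 in all 3 with shNizp1#2, and most other genes have points on both sides of 0 in at least 1 of the panels.

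In edgeR's tests over all genes, no lectin gene was called without the replicate block in any comparison. That fit called 1 gene (0.00834%) between fusion and empty-vector cells, none (0%) for shNizp1#1, 1 (0.00834%) for shNizp1#2 and 1 (0.00834%) between the shRNAs. Unadjusted edgeR p-values were under 0.05 for 480 genes with shNizp1#1. DESeq2 without the block called 50 genes there, Clec10a among them (adjusted p = 0.0289). It also called Clec10a between the shRNAs (adjusted p = 0.00263). With the block, 1 of the 8 tested lectin genes, Clec10a, was called higher with shNizp1#1, against 1.63% of all tested genes called in either direction. None of the 8 was called with shNizp1#2 (0.217% of all genes), 1 of 8, Clec10a, was called lower with shNizp1#2 than with shNizp1#1 (2.37%), and none with the fusion (0.275%). At an unadjusted p under 0.05, the blocked fit had 2 of the 8 with shNizp1#1 (Clec10a and Clec4d), against 12.3% of all tested genes, and 0 with shNizp1#2 (11.1% of all genes). It had 1 between the shRNAs (Clec10a, 14.8% of all genes) and 2 with the fusion (Clec4e and Clec10a, 11% of all genes).

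The median blocked log2 change of the 8 genes was 0.11 with shNizp1#1, 0.16 with shNizp1#2, -0.05 for shNizp1#2 against shNizp1#1 and 0.24 with the fusion, beside medians of 0.00 for all tested genes in each. Blocked edgeR adjusted p-values of the genes other than Clec10a ran from 0.400 to 0.997 with shNizp1#1 and from 0.607 to 0.999 with shNizp1#2. They ran from 0.568 to 0.936 between the shRNAs, and, without Clec4e, from 0.767 to 0.985 with the fusion. The intervals differ in width: with shNizp1#1 the blocked 95% interval of the log2 change ran from -0.55 to 0.50 for Clec4e and from -1.25 to 2.37 for Clec7a, which still takes in the value seen for Clec10a.

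**Figure D5:**
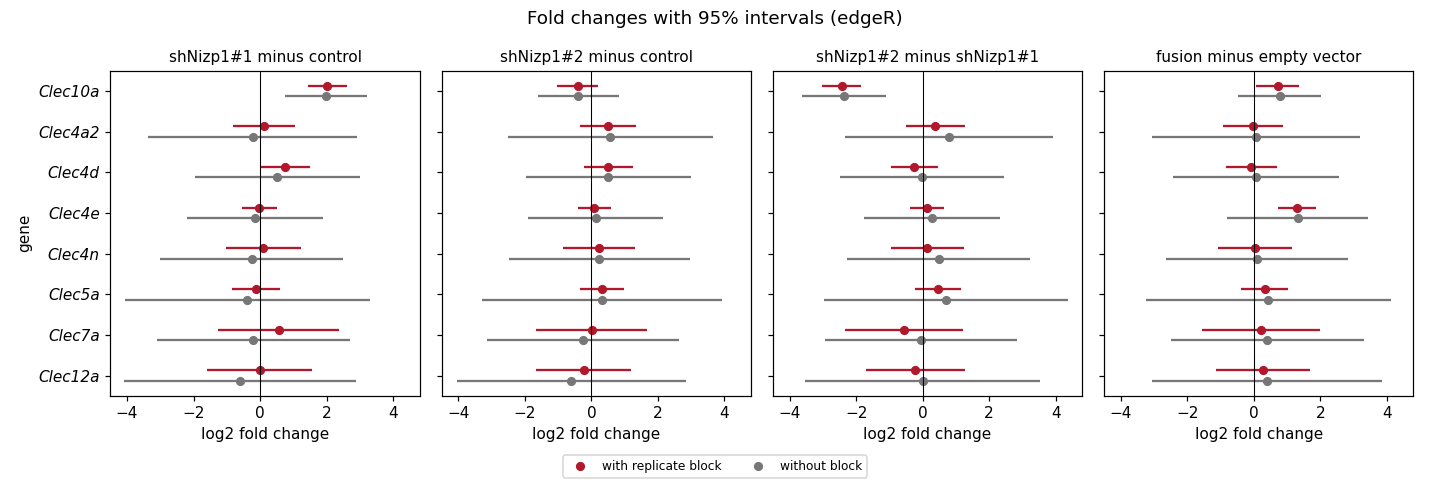
Log2 fold change with its 95% interval for the 8 tested lectin genes in 4 comparisons, from the blocked fit (red) and the unblocked fit (grey). With the block, the interval of Clec10a lies above 0 with shNizp1#1 (1.43 to 2.60) and below 0 between the shRNAs (-3.02 to -1.84). Also above 0 are those of Clec4e (0.72 to 1.86) and Clec10a (0.06 to 1.37) with the fusion. That of Clec4d with shNizp1#1 (0.01 to 1.51) is above 0 as well. The intervals are not adjusted for the number of genes, and the last 3 differences were not called in that fit.

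Signalling genes downstream of the receptors were measured in full, with all 29 listed adaptors, kinases and phosphatases tested. With shNizp1#1, 1 of 29 was called in the blocked fit, where 1.63% of all tested genes were called. It was Ptpn6, the phosphatase SHP-1 that inhibitory lectins recruit. It had 232, 221 and 181 CPM with shNizp1#1, against 312, 314 and 275 CPM with the control shRNA, and fell by 0.51 on the log2 scale (edgeR adjusted p = 0.0136). With shNizp1#2, Ptpn6 had between 231 and 245 CPM, also below all control-shRNA values in fusion cells, and was not called. Between shNizp1#2 and shNizp1#1, 3 of 29 were called, beside 2.37% of all tested genes. Tyrobp, the partner chain of Clec5a, had 322, 421 and 436 CPM with shNizp1#2, against 198, 297 and 283 CPM with shNizp1#1 (blocked log2 difference 0.61, adjusted p = 0.00591). Malt1, a protease of the Card9 pathway, was higher (0.56, adjusted p = 0.0259) and Nfkb1, a subunit of NF-kappaB, lower (-0.46, adjusted p = 0.0255) with shNizp1#2.

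None of the 29 was called with shNizp1#2 against the control shRNA or with the fusion, and none in any comparison by edgeR without the block. Median blocked log2 changes of this list were -0.06 with shNizp1#1, 0.08 with shNizp1#2, 0.17 between the shRNAs and -0.04 with the fusion. Of 44 further lectin and lectin-like genes, 17 were tested and 7 had no count in any library. In the blocked fit, Clec2i was called with the fusion, as were 0.275% of all tested genes, and no other in any comparison. Clec2i, a ligand of NKR-P1 receptors, had 26.1, 15.3 and 47.9 CPM in fusion cells with the control shRNA, against 15.4, 7.96 and 22.4 CPM in empty-vector cells (blocked log2 change 0.94, edgeR adjusted p = 0.0267, 1.00 without the block). None of the 15 tested transcription factors of monocytes and dendritic cells was called in any comparison, the most abundant being Id2 (626 CPM on average) and Runx3 (136 CPM).

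Genes with a pattern like that of a lectin gene were sought by Pearson's r of log2(CPM + 1) over the 12 libraries, among tested genes of at least 5 CPM on average. The libraries share experiments and cultures, and the values are descriptions. For Clec10a, after removing the mean of each experiment, these were Cpt1a (r = 0.912), Ak3 (r = 0.908) and Spryd3 (r = 0.903), and as measured St6galnac6 (r = 0.916), Tnip2 (r = 0.883) and Etv6 (r = 0.872). For Clec7a, after removing the mean of each experiment, they were Mpeg1 (r = 0.973), Ctss (r = 0.970) and Ccl9 (r = 0.952), of which Mpeg1 and Ctss are in the monocyte list. Mpeg1 and Ctss were also among the 3 of Clec12a, beside Cybb (r = 0.921). For Clec4n the leading genes were Dcun1d3 (r = 0.940), Aldh3b1 and Ccl9 (r = 0.930 each), for Clec4a2 Actn1 (r = 0.928), Anxa1 (r = 0.925) and Pak1 (r = 0.918), and for Clec5a Gsap (r = 0.938), Cln8 (r = 0.851) and Rab11fip1 (r = 0.848). For Clec4d, Fam20c (r = 0.959), Cd68 (r = 0.944) and Anxa2 (r = 0.933) led, and for Clec4e, St6galnac4 (r = 0.951), Adap1 (r = 0.939) and Lrrc58 (r = 0.936). Among the lectin genes themselves, Clec7a and Clec12a were the most alike on that scale (r = 0.953), and Clec10a had r between 0.12 (Clec4a2) and 0.475 (Clec4d) with the others.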

How the data were processed

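RNA of 12 libraries was measured as read counts per gene. Per the labels' protocols, 1 µg of RNA went into stranded poly(A) libraries, sequenced from 1 end over 75 nt. The deposited counts are whole numbers and not normalised. The submitters' processing notes name Trimmomatic 0.32, STAR 2.5.3a, featureCounts and the build mm10. Which version, strand setting and annotation the counter used is not given in the sources used here. Reads of overlapping antisense genes and of near-identical copies (Clec10a and Mgl2) may therefore be mixed or lost.

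From the counts, edgeR 4.0.16 (R 4.3.3) fitted 1 mean per group to all 12 libraries after a filter on low counts (11994 genes tested) with TMM scaling, robust quasi-likelihood tests and Benjamini-Hochberg adjusted p-values over all tested genes, called under 0.05. SEs were derived from the F statistic. CPM are counts scaled to the TMM-adjusted library size. Residuals of libraries with the same number correlated in 18 of 18 pairs (r from 0.223 to 0.877, median 0.738). Pairs with other numbers had a median r of -0.196. Therefore the replicate number was also fitted as a block. No label ties a library to an animal, so the p-values reflect only how much these libraries vary. No replicates agreed within sampling noise. Alternatives were RLE scaling, no filter, DESeq2 1.42.0, limma-voom (limma 3.58.1) and leaving out libraries or experiments. The script of the test was checked on simulated data. RefSeq promoters matched 7 of 9 symbols. Alignments used Biopython 1.88.

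The members, gene lists, motif and tests were chosen with earlier results of these data known. Named genes are Zkscan17, the members, up to 3 called genes of a list (otherwise the 2 most abundant), and the 3 genes most like each member. Genes named beside these as markers (Lyz2, the C1q genes, Xcr1, Siglech and Zbtb46) were chosen after their values were seen.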

Additional observations from a re-analysis of the deposited data

Results flagged for a closer look

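The effect of shNizp1#2 on Clec10a differed from that of shNizp1#1 in the test of the difference itself, with a blocked log2 difference of -2.43 (SE 0.26, edgeR adjusted p = 0.00304), lower in 3 of 3 experiments, as were 20.6% of tested genes. Clec10a had 51.9, 22.6 and 15.7 CPM with shNizp1#2, against 248, 94.9 and 122 CPM with shNizp1#1. Without the replicate block edgeR's adjusted p was 0.379. Both shRNAs lowered Zkscan17 in the blocked fit, and no other shRNA was analysed here.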

How the results depend on the processing

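Without the replicate block, edgeR called 1 gene with the fusion, 0 with shNizp1#1, 1 with shNizp1#2 and 1 between the shRNAs, and no lectin gene. In the same order, DESeq2 called 8, 50, 7 and 73 genes. The replicate block gave 33, 195, 26 and 284 genes, with RLE scaling 32, 196, 28 and 300, with no low-count filter 451, 512, 369 and 626, and in DESeq2 76, 237, 78 and 361. No low-count filter without the block gave 1 gene with shNizp1#1, 2 with shNizp1#2 and 2 between the shRNAs.

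DESeq2 called 1 lectin gene, Clec10a, with shNizp1#1 (adjusted p = 0.0289) and between the shRNAs (adjusted p = 0.00263), as did the replicate block, alone, with RLE scaling and in DESeq2. The block in DESeq2 also called 1 with the fusion, Clec4e (adjusted p = 0.00886). The block with no filter called 2 with the fusion, 3 with shNizp1#1 and 2 between the shRNAs. Clec7a was among those with shNizp1#1 and between the shRNAs. That fit tested every gene with a count and called many more genes in all, as given above. The share of all genes it called is not given here. No alternative called one with shNizp1#2. With libraries left out, blocked or not, between 0 and 169 genes were called with the fusion, 0 and 92 with shNizp1#1, 0 and 23 with shNizp1#2 and 0 and 167 between the shRNAs, and between 0 and 1 lectin genes in each but shNizp1#2, with 0.

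Clec10a kept its direction with shNizp1#1 in 23 alternatives (1.49 to 2.5, called in 11 of 13 with the block and 1 of 10 without) and between the shRNAs (-3.0 to -1.87, called in 12 of 13 and 1 of 10). Its change with shNizp1#2 ran from -1.02 to 0.13 with 1 library left out and was 0.13 without control-shRNA replicate 1, and that of Clec4d with shNizp1#1 ran from -0.45 to 1.63 and was -0.45 without shNizp1#1 replicate 2 and -0.0012 without control-shRNA replicate 3, all without the block. The causes were not tested. Of the 26 lectin values not given one by one, all 26 changed sign under at least 1 alternative. Depth limits Mgl2 and, in experiment 3, Clec5a and Clec12a.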

Other observations

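Within 50000 bases of Clec10a, 4 other genes are listed. Slc16a13, a monocarboxylate transporter gene, was the only one tested and averaged 7.60 CPM with shNizp1#1, against 7.05 CPM with the control shRNA in fusion cells (blocked log2 fold change 0.13, SE 0.25, edgeR adjusted p = 0.888, 3 libraries each).

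Dendritic cell and MHC class II markers were above 0 with the fusion in 11 of 11 tested genes (median blocked log2 change 1.12, beside 0.00 over all genes), and none was called. Ciita, which controls MHC class II genes, was higher with shNizp1#2 than with shNizp1#1 (blocked log2 difference 1.75, edgeR adjusted p = 0.0367, 0.923 without the block), opposite to Clec10a. Its level was low and variable, with 6.17 ± 5.64 CPM against 1.68 ± 1.24 CPM (SD, n = 3 each), the latter from 23 counts in all.

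Among lists of other cell types, edgeR's blocked fit called the eosinophil granule genes Epx (log2 fold change -3.35, adjusted p = 0.0114) and Prg2 (-2.56, adjusted p = 0.0247) lower with shNizp1#1. Epx was called higher with shNizp1#2 than with shNizp1#1 (adjusted p = 0.0176). Counts were few: Epx had 7 and Prg2 27 over all shNizp1#1 libraries. The lowest control-shRNA library in fusion cells had 0.196 CPM of each. Pecam1, an adhesion molecule of endothelial and blood cells, was higher with shNizp1#1 (0.49, adjusted p = 0.0247). None of these was called by edgeR without the block. Of the 12 mast cell markers and the 11 tested progenitor markers, none was called in any comparison.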
